A study of Arabidopsis thaliana with 4 samples.

Results

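Transcripts of 10 genes of the plastid genome that encode subunits of photosystem II were examined: psbA, psbB, psbC, psbD, psbE, psbF, psbH, psbI, psbK and psbT. Their probe sets were taken by gene symbol, each naming that gene alone, which gave 10 of the 22810 probe sets on the array, 1 for each gene. They were 10 of the 15 probe sets with a psb symbol, and the other 5 appear below as neighbours. All 10 reached the minimum mean signal of 100 that was set for the test, in which 13961 probe sets took part.

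RNA came from whole Arabidopsis thaliana seedlings, grown for 2 weeks at 22 °C on agar medium with 3% sucrose, with days of 16 h of light and nights of 8 h, and left untreated. The groups compared were wild type with 2 arrays and Col-0 plants titled as overexpressing At1g54160 with 2 arrays. At1g54160 encodes NFYA5, a subunit of the transcription factor complex that binds CCAAT boxes in nuclear promoters, and the series asks about its part in drought resistance. In its design text the series names nfya5 mutant plants instead, compared with Col-0 wild type, and neither the promoter behind the overexpression nor the number of lines is given in the sources used here. The titles were followed, the arrays of the second group are called the overexpressor arrays, and the level of NFYA5, which would check that name, was not analysed here, as no probe set of the annotation used carries At1g54160.

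Photosystem II is the thylakoid complex that uses light to take electrons from water and pass them to plastoquinone. Its reaction centre, core antenna and several small subunits are encoded in the plastid, whereas the oxygen-evolving and light-harvesting proteins are encoded in the nucleus. Plastid psb genes are mostly transcribed together with neighbours, and the long transcripts are then cut and stabilised by nuclear-encoded proteins. Their protein output is known to be set largely after transcription, and the D1 protein made from psbA is replaced continuously in the light.

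Each of the 10 psb genes had a positive log2 fold change, between 0.03 for psbF (-0.00040 with quantile normalization) and 0.55 for psbD. Their median was 0.32, and none of the 10 passed the test. Without wild type replicate 1 the median was 0.13, and psbB, psbF, psbH and psbT turned slightly negative. By the ratio of group means the largest differences were those of psbC, psbI, psbK and psbD, 1.28 to 1.45 times as high in the overexpressor arrays. psbH came next at 1.27 times, and by log2 fold change psbH (0.41) came before psbK (0.35). The wild type arrays of psbD lay further apart than its group means, at 1.78-fold. The groups of psbC, psbI, psbK and psbD did not overlap, all in the higher direction, and those of the other psb genes did. Among all tested probe sets, 26.1% lay apart as higher and 48.1% in either direction. The cytochrome genes psbE and psbF differed least, at 1.04 and 1.03 times. In limma's moderated test with Benjamini-Hochberg adjustment, 0 of 10 had an adjusted p under 0.05, where 1.29% of all tested probe sets passed (0.53% as higher). At an unadjusted p under 0.05 there were 4 of 10, against 8.44% of all tested probe sets in the higher direction. The median log2 fold change over all tested probe sets was 0.02, and that of the 55 other tested plastid-encoded genes was 0.37. A positive value was found in 53.2% of all tested probe sets and in 96.4% of those 55. All fold changes in logarithms were taken after adding 50 to each signal, so changes of dim probe sets are understated. In whole seedlings, a different number of green cells and a different amount of plastid RNA per cell cannot be told apart.

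The arrays were alike as a whole. The median signal over all probe sets lay between 181.4 and 194.1 arbitrary units, and log2 signals of tested probe sets correlated at 0.989 between the wild type arrays, 0.988 between the overexpressor arrays and 0.979 to 0.985 across groups. Wild type replicate 1 stood apart for plastid genes, with the lowest signal of the 4 arrays for 53 of the 55 other plastid-encoded genes and for 6 of the 10 psb genes, where 30.4% of all tested probe sets had their lowest signal on that array. Where leaving it out turns the log2 fold change of a psb gene, the value without it is given with that gene or its unit. Fold changes of other single genes are given with all 4 arrays only. The labels do not say whether the arrays of a group stand for separate cultures. The p-values therefore cover the spread among these 4 samples alone, and that spread may be technical.

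**Figure D1:**
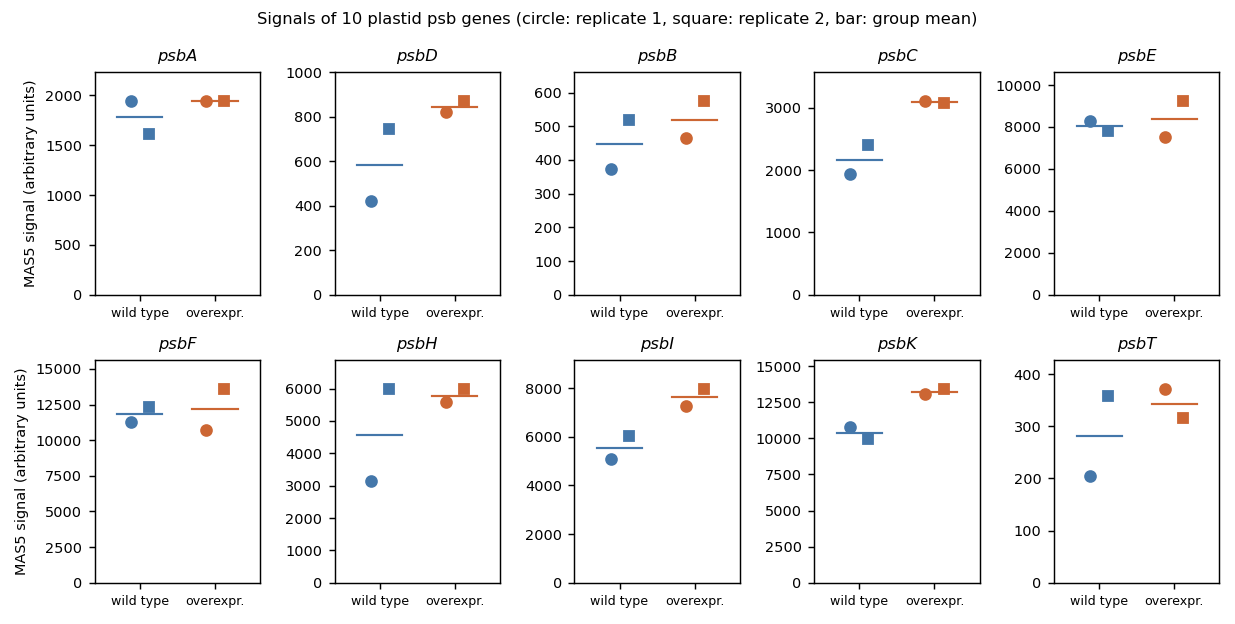
Signal in arbitrary units of each of the 10 psb genes on the 4 arrays, with wild type in blue, overexpressor in orange, circles for replicate 1, squares for replicate 2 and bars for group means; each vertical axis starts at 0 and has its own scale. The points of the groups lie apart for psbD, psbC, psbI and psbK and overlap for the other 6 genes.

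The reaction centre is built around D1 and D2, the proteins that bind the chlorophylls and cofactors of charge separation. For psbA (probe set 245047_at), which encodes D1, the signal was 1944 and 1616 on wild type replicates 1 and 2, and 1941 and 1942 on the overexpressor arrays. Both overexpressor arrays lay between the wild type arrays, close to the upper one, and wild type replicate 2 was the low one. The log2 fold change of psbA was 0.13 ± 0.11 (SE, adjusted p = 0.60), with a 95% interval from -0.11 to 0.36. For psbD (245002_at), which encodes D2, the signal was 420.5 and 746.6 in wild type, and 819.7 and 871.3 on the overexpressor arrays. Both overexpressor values were higher than both wild type values, but the wild type arrays lay 1.78-fold apart, more than the 1.45-fold difference between the group means. The log2 fold change of psbD was 0.55 ± 0.19 (SE, adjusted p = 0.19). Leaving out wild type replicate 1 gave 0.17, and leaving out wild type replicate 2 gave 0.93. The genes of D1 and D2 thus had opposite orders on the wild type arrays, psbA being higher on replicate 1 and psbD on replicate 2.

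The core antenna proteins CP47 and CP43 hold chlorophyll and pass excitation to the reaction centre. For psbB (244972_at), which encodes CP47, the signal was 374.6 and 519.3 in wild type, and 463.7 and 574.9 on the overexpressor arrays. The groups overlapped, and the log2 fold change of 0.20 ± 0.16 (SE, adjusted p = 0.56) came to -0.01 without wild type replicate 1. For psbC (245003_at), which encodes CP43, the signal was 1936 and 2403 in wild type, and 3109 and 3077 on the overexpressor arrays. Both overexpressor values exceeded both wild type values and were nearly equal, replicate 2 being at 0.990 times replicate 1. psbC had a log2 fold change of 0.51 ± 0.11 (SE, 95% interval 0.27 to 0.75) and an adjusted p of 0.052, the smallest of the 10. With every array kept, psbC passed by limma with a robust variance prior (adjusted p = 0.042). It did not with a constant variance prior (adjusted p = 0.18) or with no filter on low signals (adjusted p = 0.24). The log2 fold change of psbC was 0.66 without wild type replicate 2, 0.50 without overexpressor replicate 1 and 0.52 without overexpressor replicate 2. Without wild type replicate 1 it was 0.36.

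Cytochrome b559 is a heme protein beside the reaction centre whose alpha and beta chains are encoded by psbE and psbF. The signal of psbE (244964_at) was 8291 and 7820 in wild type, and 7509 and 9238 on the overexpressor arrays. That of psbF (244963_at) was 11272 and 12353 in wild type, and 10732 and 13594 on the overexpressor arrays. For both genes the overexpressor arrays enclosed the wild type arrays, with overexpressor replicate 1 the lowest of the 4 and overexpressor replicate 2 the highest. The log2 fold change was 0.05 ± 0.11 for psbE (SE, adjusted p = 0.87) and 0.03 ± 0.12 for psbF (SE, adjusted p = 0.92). Their 95% intervals, from -0.19 to 0.29 for psbE and from -0.22 to 0.29 for psbF, leave room for differences of that size in either direction. The direction of both turned without overexpressor replicate 2, to -0.10 for psbE and -0.14 for psbF. Without wild type replicate 1, psbF turned as well, to -0.03.

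The remaining 4 genes encode small proteins with a single membrane span. PsbI and PsbK sit near the reaction centre and CP43, and their genes are neighbours. For psbI (245023_at) the signal was 5066 and 6031 in wild type, and 7262 and 7961 on the overexpressor arrays. For psbK (245050_at) it was 10796 and 9981 in wild type, and 13069 and 13425 on the overexpressor arrays. Neither gene's groups overlapped, and psbK was the one of the 4 non-overlapping genes with the lower wild type value on replicate 2. The log2 fold change was 0.46 ± 0.10 for psbI (SE, adjusted p = 0.063) and 0.35 ± 0.09 for psbK (SE, adjusted p = 0.085), and neither passed. With all 4 arrays, psbI passed by limma with a robust variance prior (adjusted p = 0.049). It did not with a constant variance prior (adjusted p = 0.20) or with no filter on low signals (adjusted p = 0.25). Both genes passed with the replicate number as a block, as did psbC, psbD and psbH and 1075 of the 13961 tested probe sets in all. The log2 fold change of psbI was 0.33 without wild type replicate 1 and 0.58 without wild type replicate 2. psbK had the narrowest range of the 10 when each array was left out in turn, from 0.29 to 0.41, and passed in none of those fits.

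PsbH is a phosphoprotein at CP47, and PsbT lies at the interface of the photosystem II dimer. For psbH (244975_at) the signal was 3141 and 5987 in wild type, and 5586 and 5979 on the overexpressor arrays. For psbT (244973_at) it was 205.4 and 358.1 in wild type, and 371.4 and 315.4 on the overexpressor arrays. In both genes wild type replicate 1 was low, by 1.91-fold against replicate 2 for psbH and by 1.74-fold for psbT, and the other 3 arrays lay closer together. The log2 fold change was 0.41 ± 0.22 for psbH (SE, adjusted p = 0.38) and 0.28 ± 0.20 for psbT (SE, adjusted p = 0.53). Without wild type replicate 1 both turned slightly negative, to -0.05 for psbH and -0.06 for psbT. Without wild type replicate 2, psbH was at 0.87.

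**Figure D2:**
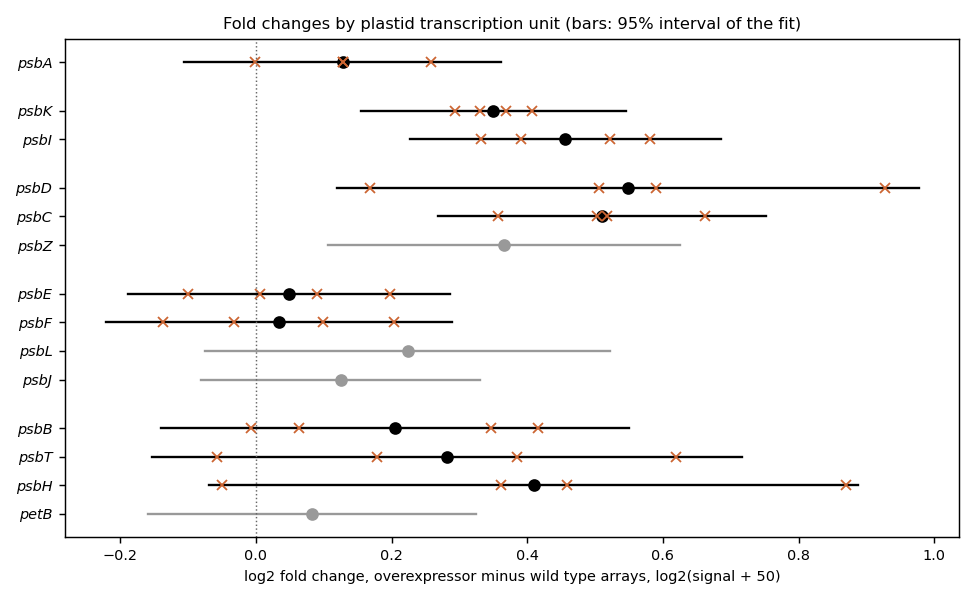
Log2 fold change of overexpressor over wild type arrays on the log2(signal + 50) scale, with genes grouped by plastid transcription unit; black dots are the 10 psb genes, grey dots neighbours of the same unit, bars the 95% interval of the fit, and orange crosses the value with each array left out in turn. Crosses of psbK stay between 0.29 and 0.41, whereas those of psbH run from -0.05 to 0.87.

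The log2 fold changes are next set out by transcription unit, the stretch of plastid genome read into a common transcript. The psbK and psbI unit had 0.35 and 0.46. The unit of psbD and psbC, which in plants also holds psbZ, gene of a small subunit next to CP43, had 0.55 and 0.51, with 0.37 ± 0.12 for psbZ (SE, adjusted p = 0.16). The unit of psbE and psbF also holds psbL and psbJ, small subunits near the cytochrome, which had 0.22 ± 0.14 and 0.13 ± 0.09 (SE, adjusted p = 0.45 and 0.55), beside 0.05 and 0.03. The unit of psbB, psbT and psbH had 0.20, 0.28 and 0.41. Its further gene petB, for a cytochrome b6f subunit, had 0.08 ± 0.11 (SE, adjusted p = 0.76). petD, the last gene of that unit and also of the cytochrome b6f complex, was too dim for the test, with 24.5 and 82.5 in wild type against 81.4 and 69.8 on the overexpressor arrays. psbN, on the opposite strand between psbT and psbH, had 0.51 ± 0.21 (SE, adjusted p = 0.26), and psbM, which shares no unit with the 10 genes, had 0.18 ± 0.13 (SE, adjusted p = 0.54). Without wild type replicate 1, psbD had 0.17 and psbC 0.36, and psbB, psbT and psbH had -0.01, -0.06 and -0.05. psbK and psbI had 0.41 and 0.33 without it, and psbE and psbF 0.09 and -0.03. Each of the neighbours and psbM had its lowest signal on that array, and their fold changes without it are not given. How alike genes of a unit were was not tested, and genes of a unit shared the same 4 arrays.

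For most of the 10 genes, as for most other plastid-encoded genes, the spread between the wild type arrays was larger than the group difference. In 7 of 10 the wild type arrays differed by more than the group means did on the log2 scale, against 50.9% of all tested probe sets and 67.3% of the 55 other plastid-encoded genes. The 3 exceptions were psbC, psbI and psbK. The difference between the overexpressor arrays was larger than the group difference only for psbB, psbE and psbF. The median absolute difference between the wild type arrays was 0.28 for the psb genes, 0.44 for the other plastid-encoded genes and 0.13 over all tested probe sets. Between the overexpressor arrays it was 0.11, 0.14 and 0.12. By these medians the excess spread of psb signals was on the wild type side, where psbH, psbD and psbT had differences of 0.92, 0.76 and 0.68. psbE and psbF went the other way. Replicate 2 minus replicate 1 was -0.08 and 0.13 for them in wild type, and 0.30 and 0.34 in the overexpressor arrays.

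**Figure D3:**
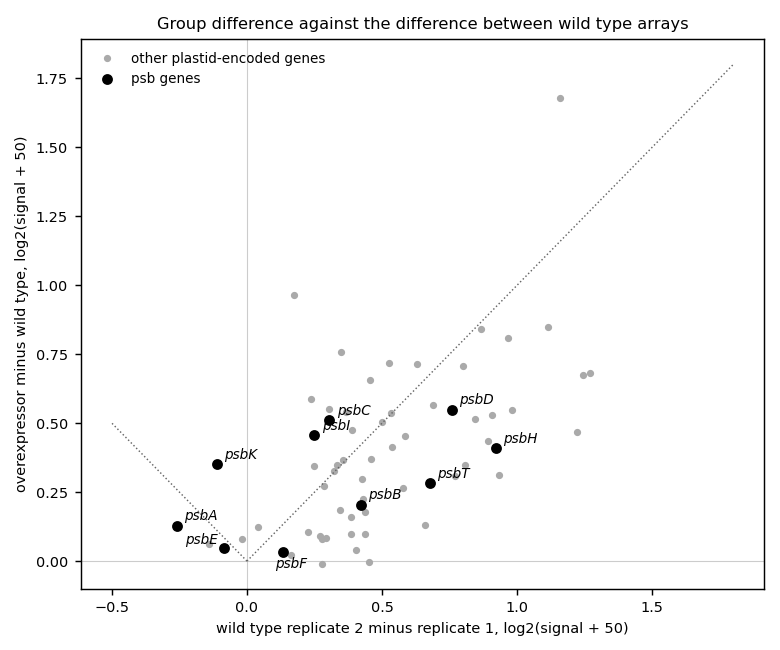
Difference between the groups (vertical) against the difference between the wild type arrays (horizontal), both in log2(signal + 50), for the 10 psb genes in black and the 55 other tested plastid-encoded genes in grey; on the dotted lines both differences are equal in size. psbC, psbI and psbK lie above the lines, with a group difference larger than that between the wild type arrays.

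With every gene centred on its own mean of the 4 arrays, the median psb value was -0.33 and -0.01 for wild type replicates 1 and 2, and 0.16 and 0.22 for overexpressor replicates 1 and 2. The other plastid-encoded genes had medians of -0.43, 0.07, 0.11 and 0.24 on the same arrays. Wild type replicate 1 thus deviated most in both sets, and the psb genes were spread on it from -0.66 for psbH to 0.07 for psbA. Of the 10 genes, 7 were higher on overexpressor replicate 1 than on wild type replicate 1, and 6 were higher on it than on wild type replicate 2. On overexpressor replicate 2, 9 were higher than on wild type replicate 1 and 8 higher than on wild type replicate 2. The median of these 4 pairings was smallest, at 0.09, for overexpressor replicate 1 against wild type replicate 2. Without wild type replicate 1 the median log2 fold change of the 10 genes was 0.13, and without wild type replicate 2 it was 0.50.

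**Figure D4:**
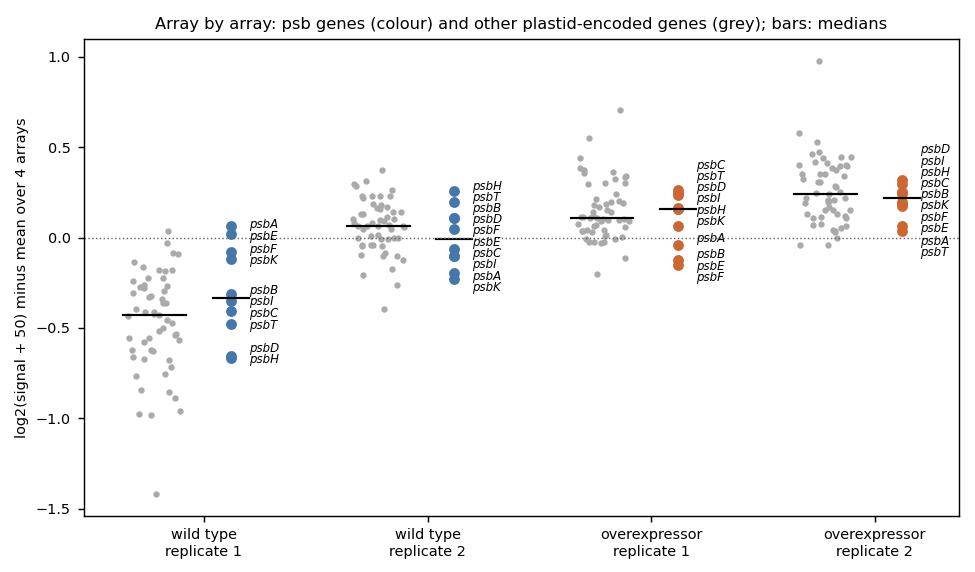
Log2(signal + 50) on each array minus the gene's own mean of the 4 arrays, for the 10 psb genes (coloured, with names in order of value and spread apart for legibility) and the 55 other tested plastid-encoded genes (grey), with bars for medians. Wild type replicate 1 has the lowest medians, -0.33 for the psb genes and -0.43 for the others.

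The psb genes were next set against the rest of the plastid genome, array by array. Both overexpressor signals exceeded both wild type signals for 4 of 10 psb genes and for 54.5% of the other plastid-encoded genes. Of those others, 9.09% passed as higher, and 52.7% had an unadjusted p under 0.05 as higher, against 4 of 10 psb genes. By family, the median log2 fold change was 0.16 for 9 ndh genes, 0.32 for 10 psa and pet genes and 0.41 for 6 atp genes. It was 0.54 for 7 rps genes, 0.55 for 7 rpl genes and 0.30 for 3 rpo genes, with 0.32 for the 10 psb genes. Without wild type replicate 1 these medians were -0.03 for the ndh, -0.01 for the psa and pet and 0.02 for the atp genes. For the rps, rpl, rpo and psb genes they were then 0.32, 0.28, 0.08 and 0.13. No test of these differences was made.

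The median log2 signal of the other plastid-encoded genes was itself 0.38 higher in the overexpressor arrays, and 0.19 higher without wild type replicate 1. Measured against that median on each array, psbC was 0.13 higher in the overexpressor arrays, and 0.17 higher without wild type replicate 1, with both overexpressor arrays above both wild type arrays. psbF was 0.34 lower and psbB 0.17 lower, with both overexpressor arrays below both wild type arrays. Without wild type replicate 1 they were 0.22 and 0.19 lower. The groups of psbB almost met, at -2.576 on wild type replicate 1 and -2.580 on overexpressor replicate 2. Those of psbF came close, at 1.91 on wild type replicate 2 and 1.87 on overexpressor replicate 2. The share of other genes without overlap on this measure is not given. For the remaining 7 genes the groups overlapped. Of these, 4 changed direction when wild type replicate 1 was left out: psbA went from -0.25 to 0.07, psbK from -0.03 to 0.22, psbD from 0.17 to -0.02 and psbH from 0.03 to -0.24. psbE went from -0.33 to -0.10, psbT from -0.09 to -0.24 and psbI from 0.08 to 0.15.

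Ratios of 2 psb genes were taken within each array, as differences of log2(signal + 50), so that a shift shared by bright genes of an array largely drops out. Of the 45 ratios among the 10 genes, 15 (33.3%) did not overlap between the groups. Among all 65 tested plastid-encoded genes, whose 2080 ratios include those 45, the share was 49.8%, and the shares were not tested against each other. The 5 ratios with the largest change each set psbE or psbF against psbC, psbD or psbI. The ratio of psbD to psbF was 0.51 log2 units higher in the overexpressor arrays without overlap, and 0.20 higher without wild type replicate 1. That of psbD to psbE was 0.50 higher with overlap, and 0.08 higher without that array. For psbC to psbF the change was 0.48 (0.39 without that array) and for psbC to psbE 0.46 (0.27 without it), both without overlap. The ratio of psbF to psbI was 0.42 lower without overlap, and 0.36 lower without that array. All 6 ratios within a unit overlapped, namely psbC to psbD, psbI to psbK, psbE to psbF and the 3 among psbB, psbT and psbH. The smallest p that an exact permutation test of 2 against 2 arrays allows is 0.333, so single ratios were not tested.

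The nuclear list held 45 genes for photosystem II subunits, light-harvesting proteins and assembly or psb transcript factors. Of these, 7 were matched to a probe set naming that gene alone, and all 7 were tested. By limma 0 of 7 passed, where 1.29% of all tested probe sets did, and 1 (LHCB4.3) reached an unadjusted p under 0.05, where 16.5% did, so both counts are near the background. Their median log2 fold change was 0.03. Among small subunits of the complex, PSBW had 0.03 ± 0.09 and PSBY 0.06 ± 0.09 (SE), and PSB27, an assembly factor, had -0.05 ± 0.09. LHCB4.1 and LHCB4.2, isoforms of the minor antenna protein CP29, had 0.01 ± 0.09 and -0.04 ± 0.09. LHCB4.3, a further isoform, was at 577.4 and 551.2 in wild type and at 791.7 and 806 on the overexpressor arrays, without overlap (log2 fold change 0.47 ± 0.10, adjusted p = 0.060). LPA1, which helps assemble D1 into the complex, had 0.15 ± 0.12 (adjusted p = 0.57).

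Markers of green tissue and of root were set beside the psb values because plastid RNA comes mainly from green cells. Of 9 green tissue markers 3 were matched to a probe set naming that gene alone (RCA, LHCB4.1 and LHCB4.2). LHCB4.1 and LHCB4.2 also belong to the nuclear genes above. The summed signal of the 3 was 52233 and 55432 in wild type and 50668 and 55182 on the overexpressor arrays. Of 7 root markers 3 were matched in this way (PYK10, EXPA7 and EXPA18), with sums of 11818 and 12572 in wild type and 12795 and 13450 on the overexpressor arrays. That the other markers were not matched does not show that the array lacks them. The log2 fold change was -0.06 for RCA, 0.01 for LHCB4.1 and -0.04 for LHCB4.2. PYK10, a beta-glucosidase gene, made up nearly all of the root sum and had 0.11. The root hair expansin genes went different ways, EXPA7 with 0.11 and EXPA18 with -0.37 ± 0.17 (SE, unadjusted p = 0.053 and adjusted p = 0.31 by limma). EXPA18 was at 169.7 and 224.6 in wild type and at 130.5 and 151.3 on the overexpressor arrays, which did not overlap. In both lists 0 of 3 passed by limma and 0 reached an unadjusted p under 0.05. The summed signal of each list was lower on replicate 1 than on replicate 2 in both groups, and the part of tissue mix in the psb values was not tested.

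The genes most like the psb set were found by the Euclidean distance, over the 4 arrays, between a gene's mean-centred log2 signal and the median psb profile, among 7486 tested probe sets naming 1 other gene. The 5 nearest were AT2G34460 (distance 0.025), AT2G33180 (0.041), AT4G28230 (0.047), PAM68 (0.051) and psbZ (0.052). AT2G34460, the nearest, was at 689 and 876.1 in wild type against 1003.4 and 1042.8 on the overexpressor arrays. PAM68, a nuclear gene for a thylakoid protein needed in photosystem II assembly, was at 691 and 840 in wild type against 982.9 and 1007 on the overexpressor arrays. A link in function between these genes and the psb values was not tested. Among the 50 nearest, 5 were plastid-encoded, whereas plastid genes made up 0.735% of the genes compared. With 4 arrays such a match is loose, since many unrelated profiles have the same shape.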

How the data were processed

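The authors deposited intensities: MAS5 signals of single-colour, biotin-labelled Affymetrix arrays, per the submitters' processing notes, on a linear scale and globally scaled to a target of 500, per the labels. MAS5's version and detection calls are not given in the sources used here. Such scaling hides a change shared by most transcripts. How far signals follow the amount of plastid RNA, most of which lacks long poly(A) tails, was not tested.

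Groups and replicate numbers came from the titles, probe set names from the platform annotation, and plastid genes from the TAIR10.1 gene table. No coordinates are printed, since the sources used here do not give the build behind the probes. Control probe sets (64) were dropped, 50 was added before log2, and a mean signal of 100 was required. limma 3.58.1 (R 4.3.3) fitted a model with a group term (eBayes, intensity trend, two-sided, Benjamini-Hochberg, threshold 0.05) and tried on simulated data. Members, gene lists and naming rules (all listed psb genes, partners in their transcription units, every tested gene of the nuclear lists, the 5 most alike genes) were chosen with earlier results of these data known. Alternatives were pseudocounts of 1, 16 and 100, other filters (none, 200), quantile normalization, median centring, a constant or robust prior, the replicate number as a block, and each array left out. The number of arrays limits the precision.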

Additional observations from a re-analysis of the deposited data

How the results depend on the processing

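Of 140 refits of single psb genes (10 genes under 14 alternatives), 118 kept direction and side of the threshold, 14 moved past it and 8 turned in direction. Those that turned lay between -0.14 and -0.00040. psbA came to -0.0017 without wild type replicate 2, and psbF to -0.00040 with quantile normalization. Without wild type replicate 1, psbB, psbF, psbH and psbT came to -0.0069, -0.032, -0.051 and -0.057. Without overexpressor replicate 2, psbE and psbF came to -0.10 and -0.14, larger in size than their reported 0.05 and 0.03. With each array left out in turn, these genes ran from those values up to 0.26 for psbA, 0.42 for psbB, 0.20 for psbE and psbF (0.197 and 0.203), 0.87 for psbH and 0.62 for psbT. The median log2 fold change of the 10 genes was 0.32 and ran from 0.13 to 0.50 with 1 array left out. Leaving out 1 array leaves 1 array in its group, so a gene's own spread then comes from the other group alone. Passing in such a fit is therefore not read as a result. The count of psb genes past the threshold was 0, rose to 2 with a robust variance prior and lay between 0 and 4 with 1 array left out. Over all tested probe sets the count was 180, with 1 under no filter on low signals, 9 with a constant variance prior and 101 to 489 with 1 array left out. With the replicate number as a block 1075 probe sets passed, 5 of them psb genes. No label says that the numbers mark a shared batch, and the replicate differences of the groups correlated at 0.056 over tested probe sets, so the numbers are not taken as pairs. Values relative to other plastid genes, ratios and family medians without wild type replicate 1 were added after the data were seen. The causes of these shifts were not tested. Signal over background could not be judged without detection calls, which limits most the dim psbT and psbB.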

Other observations

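Across the 65 tested plastid-encoded probe sets, dimmer ones differed more, within wild type and between the groups. The 20 with a mean signal under 1000, psbB, psbD and psbT among them, had a median difference of 0.48 log2 units between the wild type arrays and a median log2 fold change of 0.52. The 29 with a mean signal of at least 5000, which include psbE, psbF, psbH, psbI and psbK, had medians of 0.34 and 0.18. Spearman's rho between mean signal and the difference between the wild type arrays was -0.36 across these 65 probe sets, which share the same 4 arrays and are not independent replicates. These signal limits were chosen after the values were seen.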
